A study of Mus musculus with 6 samples.

Results

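The clustered protocadherins are cell surface adhesion proteins of the cadherin superfamily, encoded in 3 neighbouring clusters, alpha, beta and gamma, on mouse chromosome 18. The genes described here were all those with a symbol beginning Pcdha, Pcdhb or Pcdhg followed by a number or letter, between bases 36900000 and 38000000 of GRCm38, 58 of the 21897 protein-coding genes and related entries used. They comprised 14 alpha, 22 beta and 22 gamma genes. The choice used names and position, not methylation. Of the 1457048 CpG cytosines (C followed by G, each strand counted on its own) with at least 10 reads in all 6 libraries, 1092 lay in the span and 757 in the clusters, which held 170 in alpha, 129 in beta and 458 in gamma.

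In the alpha and gamma clusters each gene has its own promoter and its own large first exon, which is spliced to exons shared by the whole cluster, whereas a beta gene is a single exon. Neurons are known for choosing a few of the alternate genes per cell, so that neighbouring cells carry different adhesion proteins, and silent alternate promoters are known to be methylated. The C-type genes (Pcdhac1, Pcdhac2, Pcdhgc3, Pcdhgc4 and Pcdhgc5), at the downstream ends of the alpha and gamma clusters, are regulated differently and in neurons are expressed more uniformly. Tet2 oxidises methylated cytosine, a step towards its removal.

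The libraries were enhanced reduced representation bisulfite sequencing (ERRBS, which reads CpG-rich fragments after bisulfite treatment) of naive B cells, resting mature B cells, from spleens of C57BL/6 mice. There were 3 Tet2 knock-out libraries (KO) and 3 wild-type libraries (WT), labelled KO 1 to 3 and WT 1 to 3. The series' design text names germinal centre cells, but naive B cells stand in its title and in every sample label, and the labels are followed. No promoter, Cre driver, age or sex is given, and no label says that the libraries came from separate mice, so each p-value reflects only how these 6 libraries spread, which may be technical. Each library held 1551481 to 1626375 cytosines with at least 10 reads and 168455105 to 207065050 reads over them. The clusters had 83954 to 101410 reads per library, at a median coverage of 108 to 123. Start windows of only 3 of 8 B cell, 3 of 8 T cell and 1 of 6 myeloid marker genes were measured, too few to check the cell type: the B cell genes Pax5, Cd22 and Blk were at 0.364, 34.3 and 83.8%, the T cell genes Cd4, Zap70 and Cd8b1 at 0.423, 88.0 and 92.6%, and the myeloid gene Adgre1 at 97.9%. At Cd22 and Zap70 KO was 8.01 and 11.1 points higher (quasi-binomial adjusted p 0.893 and 0.812). These 2 genes, with 4 and 3 cytosines, were higher without overlap, as were 7.77% of all start windows. Their part in the results was not tested. Bisulfite does not separate methylated from hydroxymethylated cytosine, so both count as methylated here.

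Methylation in the clusters was intermediate where most of the measured genome was near 0 or near 100%. Of the 757 cluster cytosines, 34.5% had a level between 30 and 70% (mean of the 6 libraries), against 3.67% of all measured cytosines. Averaged over cytosines with equal weight, the clusters stood at 52.1, 53.0 and 54.1% in the KO libraries and at 51.6, 52.3 and 52.0% in the WT libraries. The whole genome stood at 33.2 to 33.8% in the same 6 libraries. In tiles of 1 kb with at least 3 cytosines, 34 of 77 cluster tiles (44.2%) lay between 30 and 70%, against 8.34% of all tiles.

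**Figure D1:**
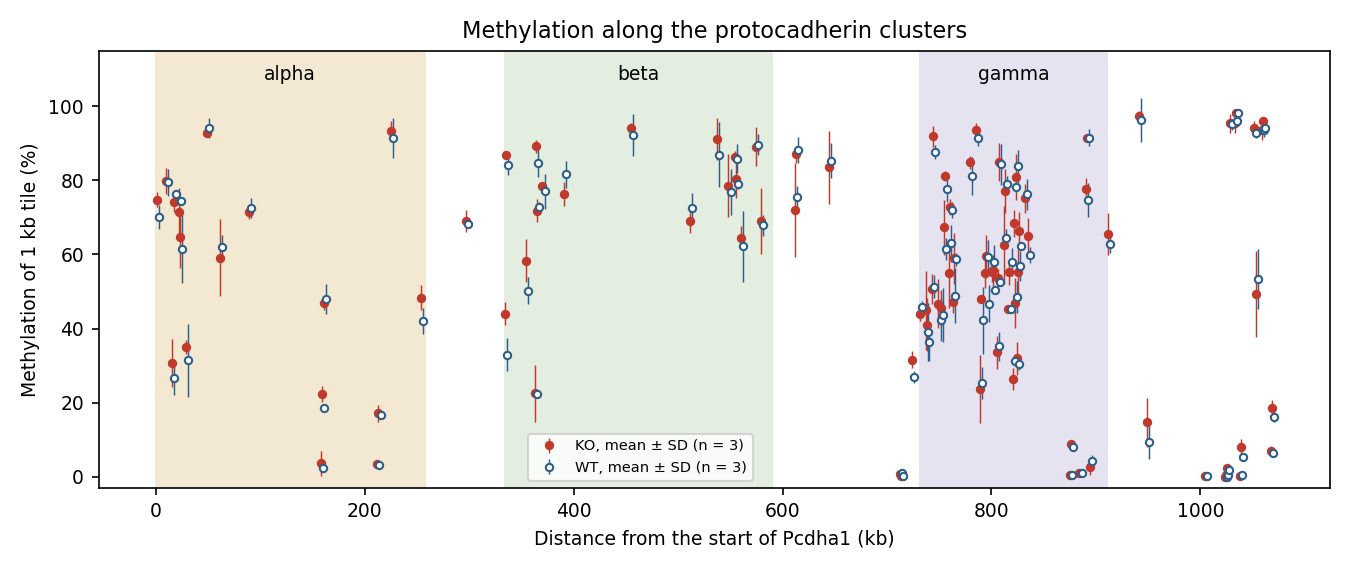
Methylation of 1 kb tiles (%, y axis) against distance from the start of Pcdha1 (kb, x axis), as mean ± SD of 3 KO libraries (filled) and 3 WT libraries (open, drawn slightly to the right). Shading marks the clusters; most beta tiles lie above 60%, gamma tiles spread between about 20 and 95%, and the low tiles at the downstream ends of alpha and gamma lie at C-type genes.

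The 3 clusters differed in level. The beta cluster was the highest, with pooled reads at 71.9, 71.5 and 69.5% in KO and 69.8, 67.2 and 68.5% in WT. The gamma cluster had 45.5, 46.6 and 47.7% in KO and 47.4, 45.4 and 45.7% in WT. The alpha cluster was the lowest, with 40.7, 41.5 and 42.7% in KO and 37.4, 40.4 and 39.1% in WT. The order beta, gamma, alpha held in each of the 6 libraries for these pooled levels, which include the C-type genes of alpha and gamma. Among alternate genes alone, alpha had the higher median in the mean of the 6 libraries, though the genes overlapped. Within 1 kb of the start the median was 60.7% over 5 alpha genes (28.7 to 72.9%) and 45.2% over 14 gamma genes (24.5 to 73.9%). In KO 1 these medians stood in the other order, at 47.2 and 48.5%. Over the first 2.5 kb the median was 68.8% over 7 alpha genes and 54.1% over 18 gamma genes. There alpha had the higher median in each of the 6 libraries. Few of all beta cytosines were unmethylated (2.33% were under 10%), whereas 28.8% of alpha and 16.8% of gamma cytosines were, with C-type genes included. Beta has no C-type gene. Near gene starts, 120 of 185 cytosines at C-type genes were under 10%, against 3 of 480 at alternate genes.

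The start of each gene was described by the window of 1 kb on either side of it, where that window held at least 3 cytosines. This left 29 of the 58 genes: 7 alpha, 5 beta and 17 gamma. The other 29 had too few measured cytosines, so the beta genes in particular are represented by 5 of 22. A longer window, the first 2.5 kb of the gene, which holds the variable exon, was measured in 38 genes (9 alpha, 8 beta, 21 gamma).

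Start windows of alternate genes were intermediate. The 24 measured ranged from 24.5 to 86.2%, with a median of 50.9%, and 23 of 24 lay between 20 and 80%. Start windows of all 12500 measured genes had a median of 0.548%, and 83.6% of them were under 10%. Most alternate start windows held cytosines only after the start. At least 3 cytosines were measured in the upstream kilobase of 3 alternate genes and in the first kilobase of 23. The alternate levels therefore mostly describe the beginning of the gene, not the sequence before it. The library medians over the 24 windows were 52.1, 49.0 and 53.3% in KO and 49.7, 50.7 and 49.3% in WT. The SD among the 24 genes was 17.1 percentage points, and the median SD among libraries of a genotype was 4.02. The windows hold cytosines at different distances from the start, so levels of different genes are also levels of different positions, and the order of genes below holds for these windows.

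**Figure D2:**
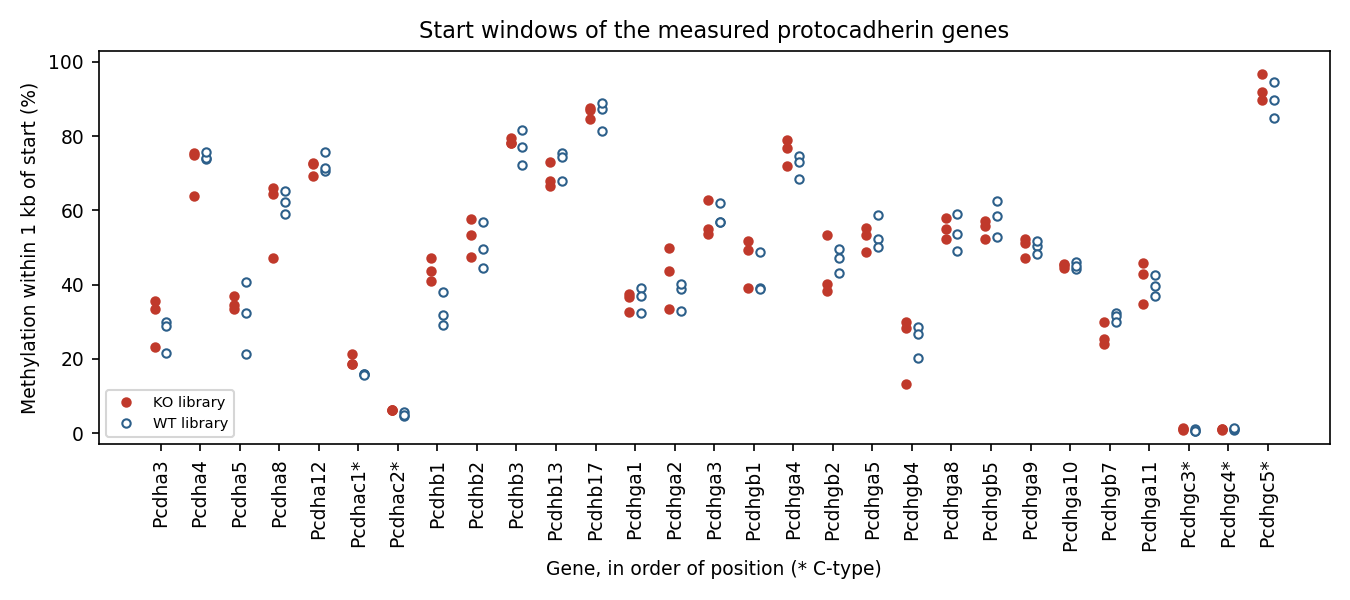
Methylation within 1 kb of the start (%, y axis) of each measured gene in order of position (x axis); each point is a library, KO filled and WT open, and an asterisk marks a C-type gene. Means over the 6 libraries lie between 24.5 and 86.2% for alternate genes (single libraries from 13.2 to 89.0%), under 10% for Pcdhgc3, Pcdhgc4 and Pcdhac2, and at 91.2% for Pcdhgc5.

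Among alternate alpha genes, Pcdha3 had the lowest start window. It had 23.2, 35.6 and 33.3% in KO and 21.5, 29.8 and 28.8% in WT, over only 3 cytosines. Pcdha4 was among the highest, at 63.8, 75.5 and 74.9% in KO and 73.7, 74.1 and 75.7% in WT, and Pcdha12 stood beside it at 72.7, 69.3 and 72.6% in KO and 70.6, 71.4 and 75.7% in WT. These 2 genes overlapped each other and both lay above every library of Pcdha3 and Pcdha5. Pcdha8, over 3 cytosines, lay between these pairs in its mean of 60.7%. It had 47.2, 66.0 and 64.4% in KO and 59.0, 65.3 and 62.1% in WT, with KO 1 apart from the other libraries. Its libraries overlapped those of Pcdha4, whose KO 1 stood at 63.8%.

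Among beta genes, the order of the 5 start windows was Pcdhb1, Pcdhb2, Pcdhb13, Pcdhb3 and Pcdhb17. Pcdhb1, the first gene of the cluster, had a mean of 38.5% over the 6 libraries. Pcdhb2 had 57.6, 47.5 and 53.4% in KO and 57.0, 44.5 and 49.7% in WT, and overlapped Pcdhb1. Pcdhb13 had 67.8, 72.9 and 66.6% in KO and 75.3, 67.9 and 74.4% in WT. Pcdhb3 had 78.1, 79.5 and 78.1% in KO and 81.8, 77.1 and 72.2% in WT, so that its lowest library lay inside the range of Pcdhb13. Pcdhb17 had 84.6, 87.6 and 87.0% in KO and 87.3, 81.4 and 89.0% in WT, the highest level of any alternate start window.

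Among gamma genes, Pcdhgb4 had the lowest alternate start window, with 13.2, 28.2 and 29.8% in KO and 20.3, 28.6 and 26.8% in WT. Pcdhgb7 was next at a mean of 28.8%. The highest were Pcdhga4, with 76.7, 71.9 and 79.0% in KO and 74.5, 73.0 and 68.4% in WT, and Pcdhga3, with 55.0, 53.7 and 62.8% in KO and 56.9, 62.0 and 57.0% in WT. All 6 libraries of Pcdhga4 lay above all 6 of Pcdhga3. The order depended on the window: within 500 bp of the start Pcdhga4, with 5 of its 22 cytosines, stood at 43.0%, below Pcdhga3, Pcdhga9 (49.0%) and Pcdhga8 (56.3%). The 2 gamma subfamilies overlapped: 9 Pcdhga genes had start windows from 35.9 to 73.9% (median 50.1%) and 5 Pcdhgb genes from 24.5 to 56.5% (median 44.5%). Over the first 2.5 kb their medians were 53.9% (11 genes) and 54.2% (7 genes). Pcdhga10, with 30 cytosines and 4341 reads per library on average, had the smallest spread among libraries of the alternate start windows: 45.2, 44.5 and 45.7% in KO and 44.3, 46.2 and 44.9% in WT.

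The C-type genes did not share this pattern. Pcdhgc3 had 1.28, 0.851 and 1.01% in KO and 1.08, 0.610 and 0.653% in WT over 45 cytosines. Pcdhgc4 had 1.02, 0.996 and 0.818% in KO and 0.856, 1.09 and 1.30% in WT over 15 cytosines. Pcdhac2 had 6.17, 6.07 and 6.17% in KO and 4.51, 5.71 and 4.72% in WT over 38 cytosines. All libraries of these 3 genes lay below all libraries of every alternate start window.

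The other two C-type genes were higher. Pcdhac1 had 18.5, 18.5 and 21.2% in KO and 15.9, 16.0 and 15.7% in WT, made up of a low upstream kilobase (6.28% over 13 cytosines) and a higher first kilobase of the gene (35.1% over 15 cytosines). Pcdhgc5 was the exception, with 89.6, 91.9 and 96.7% in KO and 94.5, 84.8 and 89.8% in WT, but its window held 3 cytosines and 641 reads in all 6 libraries together. Over its first 2.5 kb, with 18 cytosines, Pcdhgc5 stood at 82.1%, against 4.30% for Pcdhgc3 and 1.01% for Pcdhgc4, whose 15 cytosines are those of its start window.

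Methylation rose into the gene. Averaged over cytosines, alternate genes had 34.6% in the 500 bp before the start (19 cytosines at 5 genes) and 42.6% in the first 500 bp (130 cytosines at 19 genes). The next 500 bp stood at 65.6% and the 500 bp after that at 75.7%, followed by 65.1% at 1500 to 2000 bp and 72.6% at 2000 to 2500 bp. C-type genes had 3.62% before the start (2 genes) and 11.9% and 4.30% in the following bins, where the value of 11.9% included Pcdhgc5. C-type bins further in stood at 56.0% at 1500 to 2000 bp (14 cytosines at 4 genes) and 82.7% at 2000 to 2500 bp (11 cytosines at 2 genes). These bins also included Pcdhgc5, which was already at 91.2% in its first kilobase, so they do not describe C-type genes as a class. The bins hold different genes, so the profile was also read within genes.

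**Figure D3:**
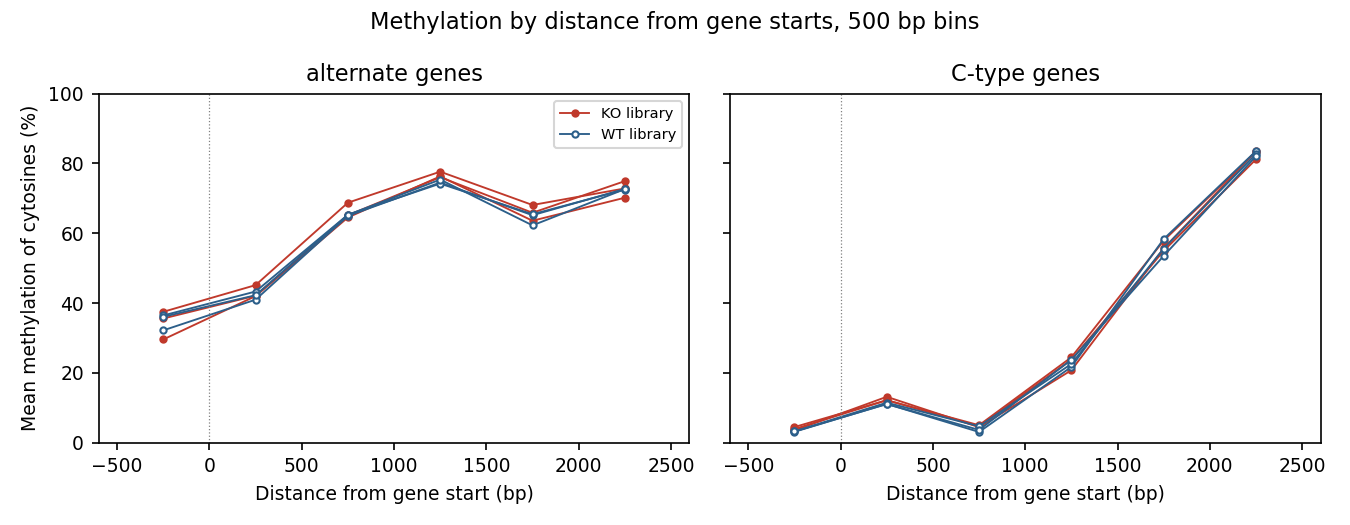
Mean methylation of cytosines (%, y axis) in 500 bp bins by distance from the gene start (bp, x axis) for alternate genes (left) and C-type genes (right), with a line for each KO (filled) and WT (open) library; bins with under 10 cytosines are not drawn. All 6 libraries follow one course. Alternate genes rise to 75.7% by 1000 to 1500 bp, with 65.1% in the next bin. The C-type bin at 2000 to 2500 bp stands at 82.7%, with 11 cytosines at 2 genes that include Pcdhgc5, which is high from its start.

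Of 17 alternate genes measured on both sides, 13 were higher between 1 and 2.5 kb than in the first 1 kb, with a median rise of 15.4 points over the 17. The exceptions were Pcdha4, Pcdhb17, Pcdhgb1 and Pcdhgb5. Pcdhb1 rose from 38.5 to 85.5% and Pcdhga1 from 35.9 to 94.2%. At Pcdhb2 the change came near the start, from 11.6% in the 4 cytosines of the upstream kilobase to 76.3% in the first kilobase. The 1 kb tile across its start stood at 22.5% and the next tile at 87.0%. Among C-type genes, Pcdhgc3 went from 1.14 to 10.2%, Pcdhac2 from 5.56 to 33.6% and Pcdhac1 from 35.1 to 62.6%, while Pcdhgc5 had 91.2 and 81.3%.

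Counted by single cytosine, alternate genes lacked the unmethylated class. From 1 kb before to 2.5 kb after their starts, with each cytosine assigned to the nearest start, 3 of 480 cytosines (0.625%) were under 10%, against 120 of 185 (64.9%) at C-type genes and 60.6% of all measured cytosines. At the upper end, 72 of the 480 alternate cytosines were at 90% or more, against 26.2% of all cytosines. A further 6 lay in the stretch of a gene but nearer the start of another. Of the 86 cluster cytosines outside all stretches, 46.5% were at 90% or more, with a median of 88.0%.

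**Figure D4:**
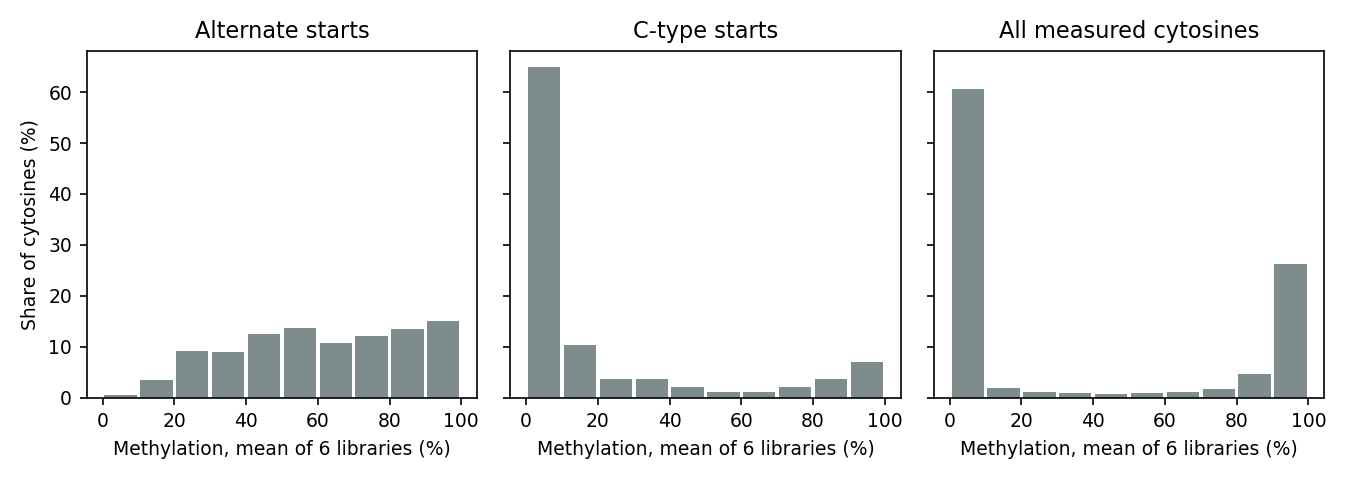
Share of cytosines (%, y axis) by methylation level (mean of 6 libraries, %, x axis) within 1 kb before to 2.5 kb after the starts of alternate genes (480 cytosines) and C-type genes (185), each counted at its nearest start, and over all 1457048 measured cytosines. The alternate genes fill the middle classes, with 0.625% under 10%, where all measured cytosines have 60.6%.

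Intermediate levels were shared by the strands. In 27 CpG pairs of the clusters with both strands measured and a mean level of 30 to 70%, the strands differed by a median of 7.54 points, and 4 pairs (14.8%) differed by over 30 points. Over the genome, 11723 such pairs had a median of 12.2 points, and 44.4% differed by over 30. No read-level phase is used here, so a mixture of fully methylated and unmethylated cells or alleles and partly methylated molecules cannot be told apart.

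KO was compared with WT by a quasi-binomial test on reads, with p-values adjusted by Benjamini-Hochberg over all features of the same kind in the genome. Calls required 2 things of a feature, an adjusted p below 0.05 and 10 or more percentage points between the genotypes. In this test 0 of the 102 tiles of the span were called, against a background of 0.112% of 108802 tiles. Before adjustment, 10 of the 102 were higher in KO and 1 was lower with p below 0.05, where all tiles gave 5.74% and 1.46%. The 10 became 5 without KO 3, 6 without WT 2 and 2 with no moderation of the spread, and the 1 became 2 without KO 1 or without WT 1. Libraries of the genotypes did not overlap in 6 higher and 2 lower tiles, where all tiles gave 8.35% and 3.36%.

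Windows at genes gave the same picture. Of the 29 start windows 0 were called, as were 0 of the 12500 in the genome (background 0%), with 3 higher and 1 lower before adjustment (p below 0.05; 4.67% and 0.792% of all), where the 1 lower became 0 without KO 2, KO 3, WT 1 or WT 2. Genotypes did not overlap in 3 higher windows (7.77% of all) and 1 lower window (2.43% of all). Of the 38 windows over the first 2.5 kb 0 were called (background 0%), with 4 higher and 0 lower at that p (4.67% and 0.916% of all) and no overlap in 2 higher and 0 lower (7.6% and 2.38% of all). The 4 became 1 without KO 3 and 2 without WT 1 or without WT 2, and 1 was lower without KO 2 or without WT 2. Of 11 bins of 100 kb 0 were called (background 0%), with 3 higher and 0 lower at that p, where 33.7% and 0.235% of all bins were, and the same number without overlap, where 35.4% and 1.11% of all bins were. Without WT 3, 281 bins of the genome were called higher and 5 lower, and still 0 in the span, where the lowest quasi-binomial adjusted p was 0.0510 (0.0788 with all 6 libraries). Of 974 single cytosines that varied 0 were called (background 0.000731%), with 57 higher and 31 lower at that p (5.31% and 3.17% of all; the 31 became 19 without WT 3, and with no moderation they were 26 and 11) and no overlap in 50 higher and 26 lower (3.95% and 2.99% of all). By limma on log ratios 0 tiles, windows, bins and cytosines of the span were called as well, with 0 tiles higher and 1 lower before adjustment.

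The largest gains were at Pcdhb1 and Pcdhga8. The Pcdhb1 tile (chr18:37265001-37266000, 12 cytosines, centred 0.503 kb into the gene, and the same cytosines as its start window) had 47.3, 41.1 and 43.6% in KO and 29.2, 37.9 and 31.8% in WT. All 3 KO libraries were above all 3 WT libraries, and KO was 10.2 points higher in pooled reads, with a quasi-binomial adjusted p of 0.172 as a tile and 0.651 as a start window. The Pcdhga8 tile (chr18:37726001-37727000, 13 cytosines, centred 0.795 kb into the gene) had 60.4, 53.4 and 64.6% in KO and 41.1, 50.3 and 48.8% in WT, again without overlap. It was 11.5 points higher in KO, with a quasi-binomial adjusted p of 0.311.

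Whether these 2 tiles passed the test depended on how the overdispersion, the spread beyond read sampling, was estimated. When the estimate of each tile was held at 1 before moderation across tiles, not after it, both were called (quasi-binomial adjusted p 0.00483 and 0.0187). Both were among the 418 tiles called higher over the genome, where 22 were called lower. Over all alternatives their adjusted p ranged from 0.00483 to 0.903 at Pcdhb1 and from 0.0187 to 0.903 at Pcdhga8, and both were higher in KO in every one, by 5.13 to 13.2 and by 8.74 to 15.6 points.

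The cytosines that make up these tiles did not share the difference evenly, a description of values that chose the tiles. In the Pcdhb1 tile, the 4 cytosines on the reverse strand, 302 to 352 bp into the gene, were 10.7 to 21.3 points higher in KO without overlap. Of the 8 on the forward strand, at 225 to 275 and 893 to 909 bp, 4 were higher and 4 lower. These 8 ranged from -9.65 to 6.78 points, all with overlap. The strands were read at different positions, so strand and position cannot be told apart there. In the Pcdhga8 tile, 5 of the 6 forward-strand cytosines, 920 to 1079 bp into the gene, were higher in KO without overlap. The 7 on the reverse strand, at 423 to 461 and 1003 to 1031 bp, ranged from -6.37 to 12.2 points with overlap. Strand and position were thus partly confounded at Pcdhga8 too. None of the 25 passed the quasi-binomial test (adjusted p 0.547 to 0.972). Further into Pcdhb1, between 1 and 2.5 kb, KO had 87.9, 85.7 and 87.3% and WT 87.1, 82.4 and 82.9%, which overlapped. The lowest adjusted p among cytosines of the span belonged to base 37807596, 1186 bp into Pcdhgc3, with 7.96 to 12.9% in the KO libraries and 1.03 to 2.38% in the WT libraries (quasi-binomial adjusted p = 0.471).

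The other gains named by size were smaller. A tile centred at -9.34 kb from the start of Pcdhb2 was 8.54 points higher in KO (quasi-binomial adjusted p = 0.521), and its genotypes met at 54.4%. A tile at Pcdhga2 had 34.5, 55.9 and 44.2% in KO and 48.1, 33.7 and 35.5% in WT, which overlapped. The Pcdhga12 tile had 64.8, 60.5 and 69.9% in KO and 59.7, 57.6 and 62.0% in WT, 5.54 points higher in KO with overlap. The first 2.5 kb of Pcdha1 was 4.79 points higher in KO, with 75.7, 72.4 and 76.1% against 70.2, 67.0 and 73.3%.

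The losses named by size lay in the gamma cluster, at Pcdhb5 and at Pcdha8. A Pcdhgb7 tile centred 0.882 kb into the gene had 64.3 to 71.0% in the KO libraries and 77.5 to 78.9% in the WT libraries, without overlap, over 3 cytosines and 857 reads in all. Pooled reads fell by 10.7 points in KO there (quasi-binomial adjusted p = 0.733). The Pcdhgb7 start window was lower in KO too, with 29.8, 25.3 and 23.9% against 32.3, 31.5 and 29.9% (quasi-binomial adjusted p = 0.893). A Pcdhgb2 tile had 48.8, 50.3 and 65.6% in KO and 58.5, 68.4 and 62.0% in WT, the Pcdhb5 window 74.6, 80.2 and 74.2% against 85.0, 77.8 and 82.4%, and the first Pcdhga8 tile, at the gene start, 59.4, 53.8 and 51.7% against 55.7, 64.5 and 57.5%. These 3 overlapped between genotypes. So did Pcdha8 (start window and first 2.5 kb, -3.60 points each) and the first 2.5 kb of Pcdhgb6 (-3.41 points). At Pcdhga8 the tile at the start was 4.53 points lower (a difference of -1.83 points without WT 2 and -2.80 without KO 3) and the next tile 11.5 points higher in pooled KO reads, and the whole start window stood at 55.0% in KO and 53.8% in WT.

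Both C-type genes of the alpha cluster had start windows that were higher in KO with no overlap between genotypes, as 7.77% of all start windows were. Pcdhac1 had 19.4% ± 1.57 in KO and 15.9% ± 0.163 in WT (SD, n = 3 each), 3.51 points higher in pooled KO reads. Pcdhac2 had 6.14% ± 0.0600 in KO and 4.98% ± 0.642 in WT (SD, n = 3 each), 1.18 points higher. Neither passed the quasi-binomial test over all start windows (adjusted p 0.812 and 0.893). The separation depended on the window. Over the first 2.5 kb both genes overlapped between genotypes, with pooled differences of 3.43 points at Pcdhac1 and 0.782 at Pcdhac2. The 1 kb tile at the start of Pcdhac1 was 3.94 points higher in KO without overlap. Tiles at Pcdhac2, before and after chr18:37144000, overlapped, at 0.215 and 0.313 points. Pcdhgc3, Pcdhgc4 and Pcdhgc5 overlapped between genotypes, with pooled differences of 0.287, -0.159 and 1.03 points.

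By cluster, KO minus WT in pooled reads was 2.64 points in alpha, 2.47 in beta and 0.397 in gamma, as a difference of means over 3 libraries each. The genotypes did not overlap in alpha (41.6% ± 1.01 against 39.0% ± 1.48, SD) and overlapped in beta (71.0% ± 1.33 against 68.5% ± 1.29) and gamma (46.6% ± 1.10 against 46.2% ± 1.08). With every cytosine weighted equally it was the beta cluster that did not overlap, at 72.1, 72.7 and 72.7% against 69.7, 69.4 and 70.5%, while alpha did, at 44.4, 45.6 and 45.1% against 43.1, 44.7 and 44.1%. These cluster values are given as levels and spread, with no test; the smallest exact permutation p for 3 libraries against 3 is 0.1. Without KO 3 the gamma difference was -0.154 points. Over the genome the pooled difference was 4.91 points, also without overlap, against 0.344 with equal weights, and the rest of the span did not overlap either, at 20.6 to 21.5% in the KO libraries and 15.7 to 19.2% in the WT libraries (pooled reads).

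The difference was set beside the level. Among the 34 cluster tiles at 30 to 70%, 20 were higher and 14 lower in KO, with a median difference of 1.21 points. All 9076 tiles of that class had a median of 1.48, with 64.5% higher in KO. The SD among libraries of a genotype had a median of 5.10 points in these 34 tiles and 4.68 in the genome's, with a median of 7 and 5 cytosines per tile.

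**Figure D5:**
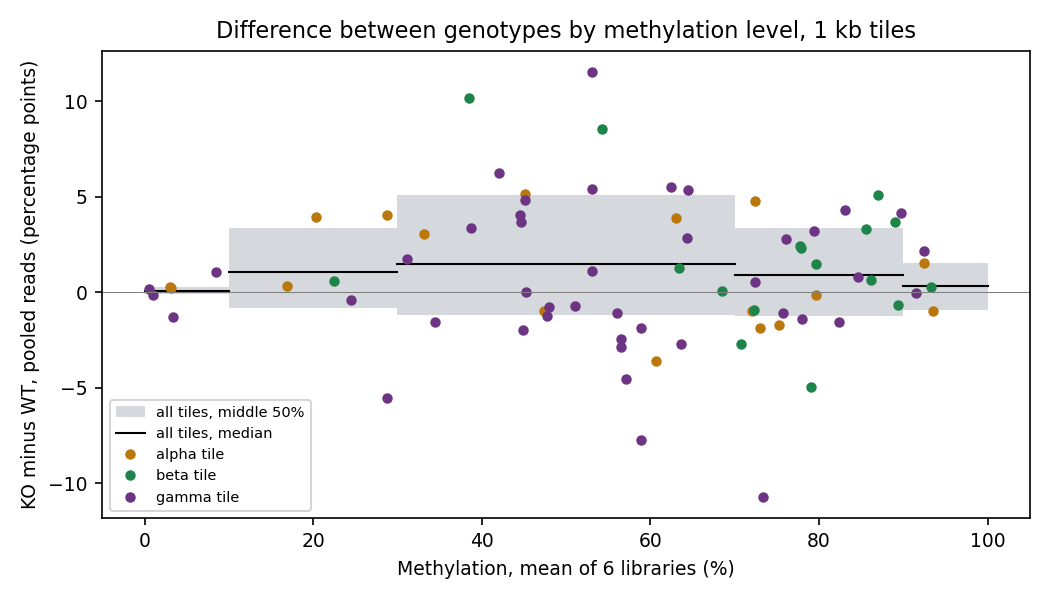
KO minus WT in pooled reads (percentage points, y axis) against methylation (mean of 6 libraries, %, x axis) for the 77 cluster tiles, coloured by cluster, over the median (line) and middle 50% (grey) of all tiles in each level class. The 2 highest points are the Pcdhga8 and Pcdhb1 tiles and the lowest is the Pcdhgb7 tile.

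Genes with a known role at the clusters were counted by their start windows. Of 19 such genes (the boundary factor Ctcf, cohesin and its loader, DNA methyltransferases, Smchd1, Setdb1, Tet enzymes and others) 12 had measured start windows, all 12 under 10% in the mean of the 6 libraries, where 83.6% of all start windows were, and 0 were called. Tet2 itself had 0.139% ± 0.0596 in KO and 0.0968% ± 0.00660 in WT (SD, n = 3 each), which says nothing on the deletion. The largest differences in either direction were at Smc1a, Setdb1 and Rest, at -0.702, 0.191 and 0.149 points. Of 12 protocadherins outside the clusters 9 were measured, 8 of them under 10%, and 0 were called. The exception was Pcdh12 at 94.6%, and the largest differences were at Pcdh12, Pcdh17 and Pcdh20 (-1.73, 1.46 and -1.28 points).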

How the data were processed

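Per the submitters' processing notes, reads were handled with Bismark on GRCm38; versions and other settings are not stated in what was used here. Per the file headers, the authors deposited for each CpG cytosine a coverage (a read count) and the percent of C and of T reads; every entry had at least 10 reads. Methylated and unmethylated reads were recovered as coverage times percent, which was whole for all entries within the rounding of the percents (0.0005 points times coverage). Reads carry no molecular identifiers, so read numbers overstate independent molecules, and reads from near-identical protocadherin exons could be misplaced, which was not tested.

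Cytosines with 10 or more reads in all 6 libraries were pooled by feature: 1 kb tiles, windows of 1 kb either side of gene starts and over the first 2.5 kb (at least 3 cytosines), and 100 kb bins (at least 20). Gene positions came from RefSeq; where no strand was given, as for all 58 genes here and 4406 of 21897 in all, the lower coordinate was taken as the start. Levels of a feature are pooled over its reads in a library; KO minus WT of a feature is pooled over the reads of a genotype, so it need not equal the difference of library means.

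Each feature was fitted with a quasi-binomial model, 1 level per genotype, Pearson overdispersion on 4 residual degrees of freedom, moderated with limma 3.58.1 (R 4.3.3), then held at 1 or above. Features without a C read or without a T read were left out. That exclusion was not in the original plan: a first fit that kept them called 0 tiles in the genome. Next, 16 ways to estimate the overdispersion were compared on all tiles, giving 111 to 520 higher and 0 to 28 lower calls; the one kept has the planned order of steps and follows an earlier description of the processing of these data, whose tile counts (122 higher, 0 lower) it gives. Of the 16, 8 called 2 tiles of the span, all of them holding the overdispersion at 1 before moderation; the other 8 called 0. The script was tested on simulated data.

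Genes, lists and tests were chosen with earlier results of these data known. Named were all C-type genes, the 3 highest and 3 lowest start windows per cluster, the 5 largest gains and losses among windows and among tiles, and the 3 largest differences per list; any other gene, window or cytosine was chosen after its values were seen. No 2 libraries shared over 0.613% of cytosines with identical counts. Sequences of these genes are not used here.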

Additional observations from a re-analysis of the deposited data

How the results depend on the processing

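The settings varied were a coverage minimum of 20, removal of the top 0.1% of coverage, each library left out, the replicate number as a block, equal weights, limma on log ratios, no moderation, a minimum difference of 5 points and at least 5 cytosines per tile; all of them called 0 tiles, windows, bins or cytosines of the span, where equal weights and the tile minimum were not run on single cytosines. Added after seeing the data were keeping invariant features and robust moderation (neither run on single cytosines), a coverage trend, and holding the overdispersion at 1 before moderation. Only the last called anything there, 2 tiles (Pcdhb1 and Pcdhga8, differences of 10.2 and 11.5 points); the cause was not tested. In the genome, tiles called fell to 0 with the block, limma, no moderation or invariant features kept, were 84 with equal weights, and were 50 to 118 higher and 0 to 7 lower with a library left out; 281 bins were called higher and 5 lower without WT 3, and 1 start window with the overdispersion held first. The alpha cluster difference moved from 2.64 to 1.05 points with equal weights. With a library left out it ranged from 1.86 to 3.33, beta from 1.83 to 3.23 and gamma from -0.154 to 1.02. Differences reversed without KO 1 at Pcdha8 (start window and first 2.5 kb, -7.26 to 3.12 with a library left out) and Pcdhgb6 (first 2.5 kb, -7.31 to 2.60), and without WT 2 at Pcdhgc5 (-0.140 to 3.37). Deviations of same-numbered KO and WT libraries over tiles correlated at 0.0481, -0.0293 and -0.00736, within the -0.0391 to 0.0533 of differently numbered pairs. Same-numbered libraries thus did not stand out, but whether libraries were handled in pairs or batches was not tested. The replicate block called 0 tiles of the span. Depth limits the thin windows, such as Pcdhgc5 with 3 cytosines.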
